A study of Mus musculus with 2 samples.

Results

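The 10 genes followed here belong to the death receptor and necroptosis pathways, and were measured as single-barcode RNA counts of mouse liver in acute hepatitis. They were chosen by name, as the receptors Fas, Tnfrsf1a and Tnfrsf10b, the adaptor and initiator layer Fadd, Casp8, Cflar and Bid, and the necroptosis layer Ripk1, Ripk3 and Mlkl. These are 10 of the 32287 features in each count matrix, and all 10 were found. The mice were wild-type C57BL/6J, 4 weeks old when given the vector AAV-scramble, a control, or AAV-shBicd2, whose hairpin targets Bicd2; AAV is adeno-associated virus. Livers were taken 3 weeks later, 6 hours after concanavalin A (Con A) was given into a vein at 15 mg/kg. Con A is a lectin that activates T cells and injures hepatocytes. Every liver had received it, and no liver without Con A was analysed here. How many animals made up a library, and which promoter drives the hairpin in which cells, the sources used here do not give.

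Each group held 1 library, so no difference below has a replicate check and no test between the groups was made. Intervals are at 95% and cover counting error only. The 3′ kit gives counts of unique molecular identifiers (UMIs), and the matrices held 2805 and 3038 barcodes with 5086306 and 5624055 UMIs, in the order scramble and shBicd2, an order kept throughout. The libraries shared 3 barcodes. After filtering, 2729 and 2941 barcodes remained, with medians of 1501 and 1498 UMIs. The target Bicd2 had 81 and 107 UMIs, or 16.6 and 19.8 in CPM (UMIs scaled to a common total), with a ratio of 1.19 (0.884 to 1.61), and so was not lower over all kept barcodes. It was higher in the main population, at 14.1 and 21.1 CPM with a ratio interval of 1.08 to 2.10, and the ratio was 0.305 (0.0875 to 0.872), from 16 and 5 UMIs, in the 6 clusters outside it and the hepatocyte-like one. Directions compare the labelled libraries and not a measured loss of Bicd2. All 12 hepatocyte markers were detected in each library. Most barcodes, 2174 and 2403, fell into 8 clusters that no marker set named, called here the main population. Each cluster was compared with all other barcodes pooled, so this rule can hardly name clusters of a majority cell type. Lack of a name is thus no sign that hepatocyte markers were missing. They summed to 19119 and 23600 CPM in the main population, beside 20183 and 25920 CPM over all kept barcodes. Main population barcodes had median mitochondrial shares of 0.155% and 0.291%. Whether cells or nuclei were loaded, the sources used here do not say. The libraries hardly mixed there: 1011, 592, 373 and 159 scramble barcodes lay in clusters 2, 3, 6 and 9, while 1175, 646 and 365 shBicd2 barcodes lay in clusters 1, 4 and 7. Only cluster 3, with 592 and 108 barcodes, had at least 50 of each library among the clusters of the main population.

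Death receptors of the TNF family bind Fas ligand, TNF or TRAIL and gather the adaptor FADD and the protease caspase-8. Active caspase-8 cuts effector caspases and the BCL2 relative BID, whose fragment opens mitochondria, a step hepatocytes are known to need for Fas killing. The long form of cFLIP, the product of Cflar, pairs with caspase-8 and blocks its full activation. When caspase-8 is held off, RIPK1 and RIPK3 can join through a shared motif, and RIPK3 then activates MLKL, which breaks the plasma membrane in necroptosis. Hepatocytes are known for little or no RIPK3.

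Cflar, the protective member, had by far the most UMIs of the 10 in either library and was lower in the library labelled shBicd2. In the main population it had 2416 UMIs, or 577 CPM (554 to 600), under the scramble label and 1669 UMIs, or 349 CPM (332 to 366), under the shBicd2 label. The ratio, library labelled shBicd2 over library labelled scramble here and below, was 0.604 (0.568 to 0.644). Cflar ranked 199 of 15080 and 378 of 15867 detected genes by UMIs. It made up 63.6% and 53.5% of all UMIs of the 10 members.

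The other members lay far below it. Tnfrsf1a, the TNF receptor that carries a death domain, stood at 82.9 and 88.6 CPM. Fas stood at 75.9 and 41.6 CPM, and Ripk1, the kinase that sits at the branch between survival and death, at 63.5 and 54.1 CPM. In the library labelled scramble the intervals of Tnfrsf1a (74.4 to 92.1) and Fas (67.8 to 84.8) overlapped. Mlkl, the pore-forming effector, stood at 46.6 and 39.1 CPM, Casp8 at 35.3 and 35.9 CPM, and Bid at 17.9 and 33.0 CPM. Tnfrsf10b, the mouse TRAIL receptor, had 22 and 32 UMIs, and Fadd 11 and 17, under 7 CPM for each. Ripk3 had 1 and 4 UMIs, or 0.239 CPM (0.00605 to 1.33) and 0.836 CPM (0.228 to 2.14). Levels were also divided by the annotated gene span, introns included. UMI counts of a 3′ kit need not grow with that span, so the order on this scale is no second check. Cflar stood at 12.2 and 7.36 CPM per kb, Tnfrsf1a at 6.31 and 6.75 CPM per kb, and Ripk3 at 0.0617 and 0.216 CPM per kb.

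**Figure D1:**
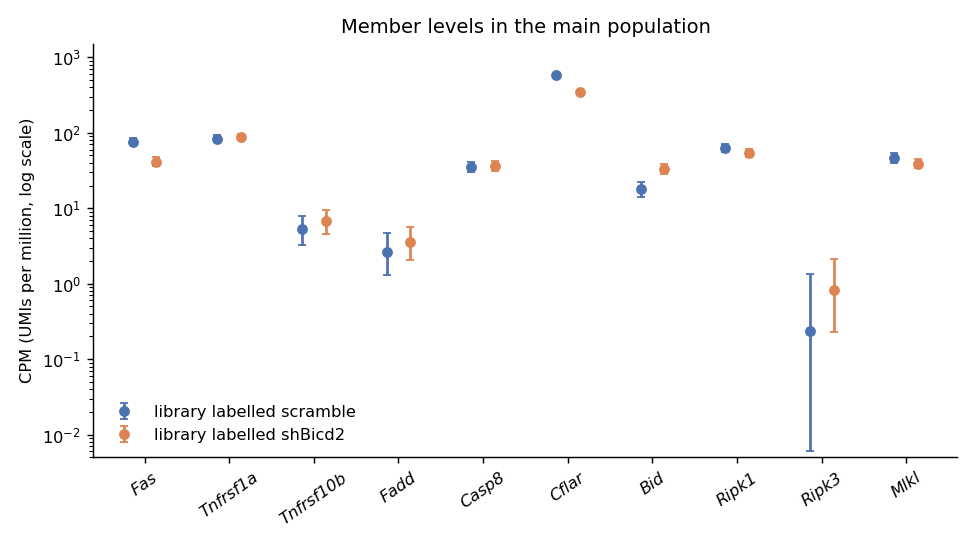
Level of each member in the main population (vertical axis, CPM on a log scale) for the library labelled scramble (blue) and the library labelled shBicd2 (orange); points are single libraries and bars are 95% Poisson intervals. Cflar stands highest at 577 and 349 CPM, and Ripk3 lowest at 0.239 and 0.836 CPM.

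Cflar (ENSMUSG00000026031) lies on GRCm38 chromosome 1 from 58711508 to 58758884, plus strand, and Casp8 (ENSMUSG00000026029) follows on the same strand from 58795374 to 58847503. The gap of 36489 bases holds 1 further annotated gene, which does not code for protein. These neighbours stood apart in the comparison of libraries: Casp8, the initiator protease that cFLIP holds back, had 148 and 172 UMIs in the main population and a ratio of 1.02 (0.812 to 1.28), against 0.604 for Cflar. Fas (ENSMUSG00000024778, chromosome 19, 34290666 to 34327772, plus strand) had 318 and 199 UMIs and a ratio of 0.548 (0.456 to 0.656). Cflar and Fas thus had nearly equal ratios, with 7.60 and 8.39 Cflar UMIs per Fas UMI. Bid (ENSMUSG00000004446, chromosome 6, 120891930 to 120916853, minus strand) went the other way, with 75 and 158 UMIs and a ratio of 1.84 (1.39 to 2.46). Bid overlaps Bcl2l13 on the other strand, which stood at 15.5 and 18.8 CPM. The sources used here do not say whether counting used strand, so reads of the pair may be shared. Of the others, Tnfrsf1a lies on chromosome 6 from 125349362 to 125362484 and Ripk1 on chromosome 13 from 34002363 to 34037147, both on the plus strand. Ripk3 lies on chromosome 14 from 55784995 to 55788865 and Mlkl on chromosome 8 from 111311797 to 111338177, both on the minus strand. Ripk1 overlaps Serpinb6a on the other strand, which had 5 and 15 UMIs.

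The promoter windows of Cflar, Fas and Bid, the members whose levels lay past 1.5-fold between the libraries, are shown to set their letters beside these levels. Each runs from 250 bases before to 50 bases after the RefSeq start on GRCm38.p6, read along the gene's strand. Capitals mark matches to AP-1 (TGANTCA), GAS (TTCNNNGAA) or ISRE (GAAA, any 2 bases, GAAA, bound by interferon regulatory factors), on either strand, and no matches overlapped.
Cflar chr1:58711241-58711540, plus strand: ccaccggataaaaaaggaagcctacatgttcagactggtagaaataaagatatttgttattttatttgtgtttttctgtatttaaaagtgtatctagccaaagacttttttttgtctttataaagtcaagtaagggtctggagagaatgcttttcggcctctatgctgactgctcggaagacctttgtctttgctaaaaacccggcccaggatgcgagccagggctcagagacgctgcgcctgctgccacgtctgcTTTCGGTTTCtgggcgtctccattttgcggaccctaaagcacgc
Fas chr19:34290409-34290708, plus strand: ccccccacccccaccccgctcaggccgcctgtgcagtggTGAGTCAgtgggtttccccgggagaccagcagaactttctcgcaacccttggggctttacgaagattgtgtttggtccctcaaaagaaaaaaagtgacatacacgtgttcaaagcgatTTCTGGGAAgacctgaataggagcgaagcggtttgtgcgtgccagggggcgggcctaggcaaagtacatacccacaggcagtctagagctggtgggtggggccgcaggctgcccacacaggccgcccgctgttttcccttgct
Bid chr6:120916775-120917074, minus strand: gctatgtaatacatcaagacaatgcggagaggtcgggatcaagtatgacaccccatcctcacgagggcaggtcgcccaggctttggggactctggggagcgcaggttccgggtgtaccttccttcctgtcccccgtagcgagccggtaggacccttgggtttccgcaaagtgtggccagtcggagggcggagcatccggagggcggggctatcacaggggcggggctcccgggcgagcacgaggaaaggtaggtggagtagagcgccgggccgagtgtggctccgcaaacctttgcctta
The Cflar window holds 1 ISRE match, after the start. The Fas window holds 1 AP-1 and 1 GAS match, and these letters do not occur in the Bid window. Of 32851 promoter windows of the same length, 7.81% hold the AP-1 letters, 8.3% the GAS letters and 3.44% the ISRE letters. An NF-kB consensus, found in 8.46% of the windows, had no match in any of the 10 windows found for 9 members, of which Ripk1 has 2. The second Ripk1 window holds GAS and ISRE matches and the Tnfrsf1a window 1 GAS match. A match is a run of letters and not a measured binding site.

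The comparison of libraries is described next for all members. Of the 9 members with at least 20 UMIs in the main population, Bid alone had a ratio of at least 1.5, against 25.2% of the 10952 genes with that many UMIs. Cflar and Fas had ratios of 1/1.5 or less, against 10.9% of those genes. The median log2 ratio was 0.02 over the 9 members and 0.15 over all those genes. With 9 genes, these counts do not set the members apart from genes at large. The remaining 6 lay between: Ripk1 at 0.852 (0.715 to 1.01), Mlkl at 0.839 (0.683 to 1.03), Tnfrsf1a at 1.07 (0.926 to 1.24), Casp8 as given, Tnfrsf10b at 1.27 (0.717 to 2.30) and Fadd at 1.35 (0.597 to 3.19). All 6 intervals included 1. Ripk3, with 5 UMIs in all, had a ratio of 3.50 with an interval from 0.346 to 172.

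Over all kept barcodes, Bid and Fadd were past 1.5-fold higher among 9 members (24.3% of 11617 genes), and Cflar and Fas past 1.5-fold lower (10.8% of genes). Fadd, the adaptor that links receptor and caspase-8, rested on 12 and 21 UMIs, a ratio of 1.58 (0.742 to 3.52). Cflar had 0.583 (0.550 to 0.619), Fas 0.578 (0.489 to 0.682) and Bid 1.81 (1.39 to 2.38). Mlkl stood at 47.1 and 36.9 CPM there, for a ratio of 0.784 (0.646 to 0.952), and Ripk1 at 67.4 and 56.0 CPM, for a ratio of 0.831 (0.708 to 0.974).

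**Figure D2:**
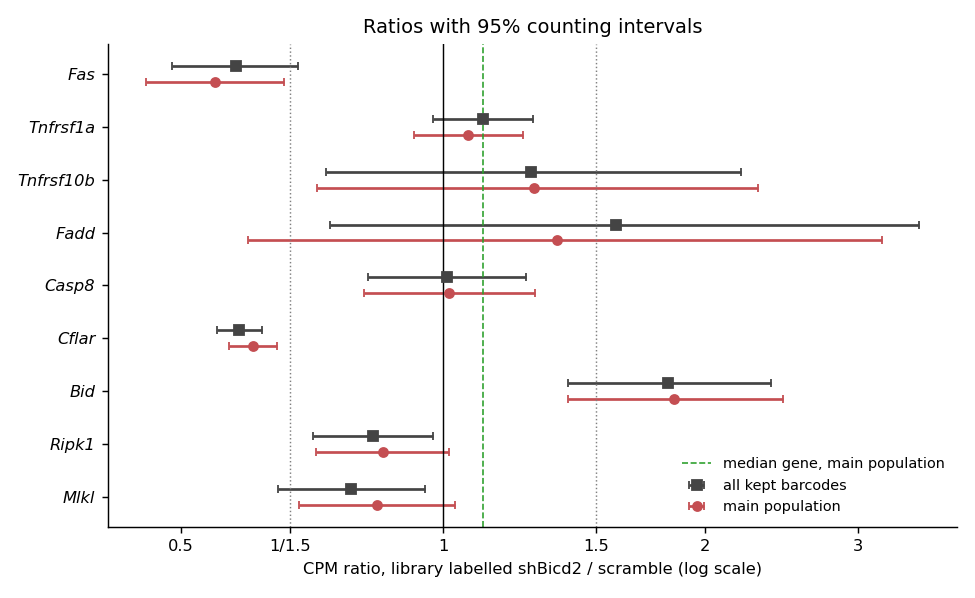
Ratio of CPM, library labelled shBicd2 over library labelled scramble (horizontal log axis), for the 9 members with at least 20 UMIs, over all kept barcodes (squares) and in the main population (circles); bars are 95% counting intervals, dotted lines mark 1.5-fold and the dashed line the median gene. Cflar (0.604) and Fas (0.548) lie left of the lower dotted line and Bid (1.84) right of the upper one in the main population.

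The share of barcodes with a UMI was as follows. Cflar was seen in 56.8% (54.6% to 58.9%) and 42.2% (40.2% to 44.2%) of main population barcodes, with 1.96 and 1.65 UMIs per barcode that had any. Fas was seen in 12.3% (10.9% to 13.7%) and 7.28% (6.28% to 8.40%), and Bid in 3.22% (2.52% to 4.05%) and 5.74% (4.85% to 6.75%). The shares were 14.1% and 15.2% for Tnfrsf1a, 11.1% and 9.65% for Ripk1, and 6.07% and 6.78% for Casp8. Mlkl was seen in 174 and 171 barcodes. Ripk3 was seen in 1 and 4 barcodes. No class of these livers is known to lack the widely used members, so free RNA has no zero point for them here.

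Depth did not differ much between the libraries, with main population medians of 1653.5 and 1685 UMIs. With every barcode thinned to 1000 UMIs (466 and 510 shallower barcodes left out), the Cflar share was 42.0% (39.7% to 44.4%) and 27.7% (25.7% to 29.8%). The Fas share was then 6.56% (5.43% to 7.84%) and 3.59% (2.80% to 4.53%). For Bid it was 2.22% (1.58% to 3.04%) and 3.17% (2.43% to 4.06%), with intervals that overlapped.

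Cflar was next set against the killing members, the sum of the other 9. In the main population there were 175 (163 to 187) and 115 (107 to 123) Cflar UMIs per 100 killing UMIs, a ratio of 0.658 (0.597 to 0.726). The denominator differed little: the killing members summed to 330 and 303 CPM, for a ratio of 0.919 (0.853 to 0.990). Per single member, Cflar UMIs per UMI went from 6.96 to 3.94 for Tnfrsf1a, from 16.3 to 9.70 for Casp8, from 32.2 to 10.6 for Bid, from 9.08 to 6.44 for Ripk1 and from 12.4 to 8.93 for Mlkl. Fas alone among these, at 7.60 and 8.39, did not share that direction.

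The same balance was also lower under the shBicd2 label in every other class that reached 50 barcodes per library. Hepatocyte-like barcodes (261 and 234) carried median mitochondrial shares of 4.61% and 6.46% and hepatocyte markers at 39434 and 74346 CPM. The balance there was 129 (100 to 167) and 59.5 (40.6 to 86.4). In monocyte/macrophage-like barcodes (73 and 80) it was 214 (147 to 317) and 87.5 (54.0 to 141). A mixed cluster (108 and 68 barcodes), which raised 8 of 12 B cell, 7 of 10 erythroid and 5 of 7 proliferation markers, had 215 (151 to 311) and 54.2 (25.3 to 111). Hepatocyte markers in the 6 clusters outside the main population and the hepatocyte-like class reached 0.711 and 0.840 of their main population level. The part of free RNA in these values was not tested.

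**Figure D3:**
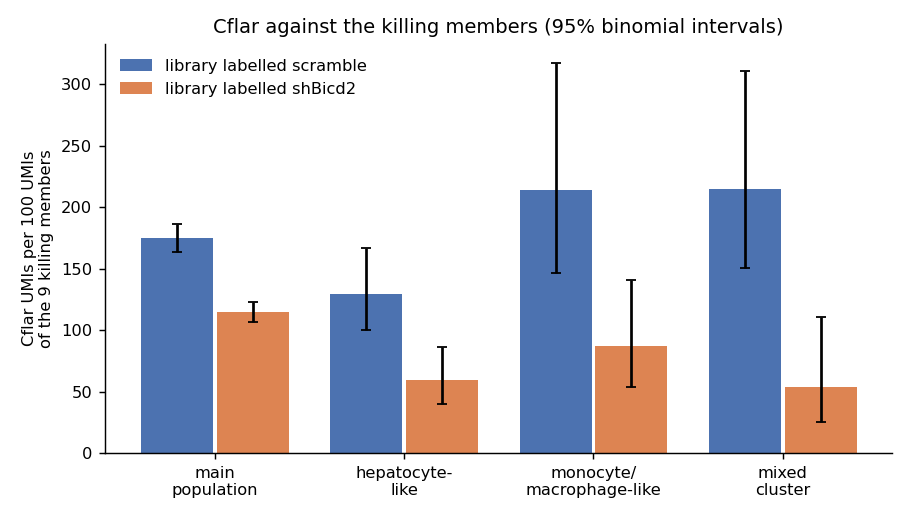
Cflar UMIs per 100 UMIs of the 9 killing members (vertical axis) in the 4 populations with at least 50 barcodes per library; blue bars are the library labelled scramble, orange bars the library labelled shBicd2, and lines are 95% binomial intervals. The bar of the library labelled shBicd2 is lower in each population, 115 against 175 in the main population.

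Joint detection was counted per barcode. Of main population barcodes, 42.2% and 40.9% held a killing UMI, 28.3% and 20.9% held both kinds, and 638 and 908 barcodes held neither. Cflar was seen in 67.1% and 51.0% of barcodes with a killing UMI, against 49.2% and 36.0% of those without. At 1000 UMIs each, these shares were 42.3% (37.8% to 47.0%) and 41.9% (39.2% to 44.7%) in the library labelled scramble, a gap within counting error. In the library labelled shBicd2 they were 32.0% (27.9% to 36.4%) and 26.3% (24.0% to 28.7%). These intervals overlapped slightly, but each share lay outside the other interval. The gap itself was given no interval. No more than 6 of the 10 members were seen in any 1 barcode.

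The clusters of the main population show where the members lay. Clustering left out all members and pathway genes, so their levels did not make the clusters. Cflar had the smallest fold range of the members over clusters with at least 50 barcodes. It was at 510 to 615 CPM, or 1.21-fold, over 4 clusters of the library labelled scramble. Over 5 clusters of the library labelled shBicd2 it was at 287 to 446 CPM, or 1.55-fold, near the 1.62-fold of Mlkl. Counting error widens the range of members with fewer UMIs, so this order rests in part on depth. The Cflar ranges of the libraries did not overlap. The lowest Cflar value, 287 CPM (264 to 311), was in cluster 1, the largest of the library labelled shBicd2. That cluster was led by G0s2 and Gm17276, with Plin2 and Hmgcs1 among its top genes. In cluster 4, led by EGFP and heat shock genes, Cflar was at 402 CPM (373 to 434).

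The next values are for main population clusters with at least 50 barcodes. Fas was highest in cluster 9 of the library labelled scramble, at 131 CPM (93.8 to 177), a cluster led by Rnd1, Ripk2 and Gbp5. It stood at 93.6 CPM in cluster 3 of that library, which was led by the interferon-induced Ifit2 and Ifit1, and at 50.8 CPM in cluster 2. In the library labelled shBicd2 it ran from 25.1 CPM (18.7 to 33.0) in cluster 1 to 68.9 CPM (38.6 to 114) in cluster 3. Mlkl, itself an interferon-induced gene in many cells, had its highest values in the library labelled scramble in the same clusters 9 and 3, at 70.1 and 63.1 CPM, against 30.1 CPM in cluster 2. In the library labelled shBicd2 it was highest in cluster 7, at 54.3 CPM (38.1 to 75.2).

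In the main population, Tnfrsf1a and Casp8 had nearly equal levels in both libraries yet varied widely among clusters. Tnfrsf1a stood at 127 CPM (112 to 144) in cluster 1 and 47.8 CPM (37.9 to 59.4) in cluster 4 of the library labelled shBicd2. It ran from 54.6 CPM in cluster 3 to 112 CPM in cluster 6 of the library labelled scramble. Casp8 was at 48.2 CPM (39.1 to 58.8) in cluster 1 against 18.1 CPM (9.36 to 31.6) in cluster 7, and at 21.3 CPM in cluster 2 against 52.5 CPM in cluster 6. The ratios near 1 of these genes are thus sums over clusters that differed by more than the libraries did.

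Within the main population, Bid stood highest in 1 cluster. Cluster 7, with 365 barcodes of the library labelled shBicd2, was led by Fmo1, Srxn1 and Nos2. It held 62 of the 158 main population Bid UMIs of that library, at 93.6 CPM (71.8 to 120). The other main population clusters of that library with at least 50 barcodes were at 18.2 to 32.2 CPM. Those of the library labelled scramble were at 11.5 to 41.4 CPM. Without cluster 7 the Bid ratio was 1.30, and after thinning 1.46, both under 1.5-fold. Nos2 makes nitric oxide and Srxn1 repairs oxidised peroxiredoxins.

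**Figure D4:**
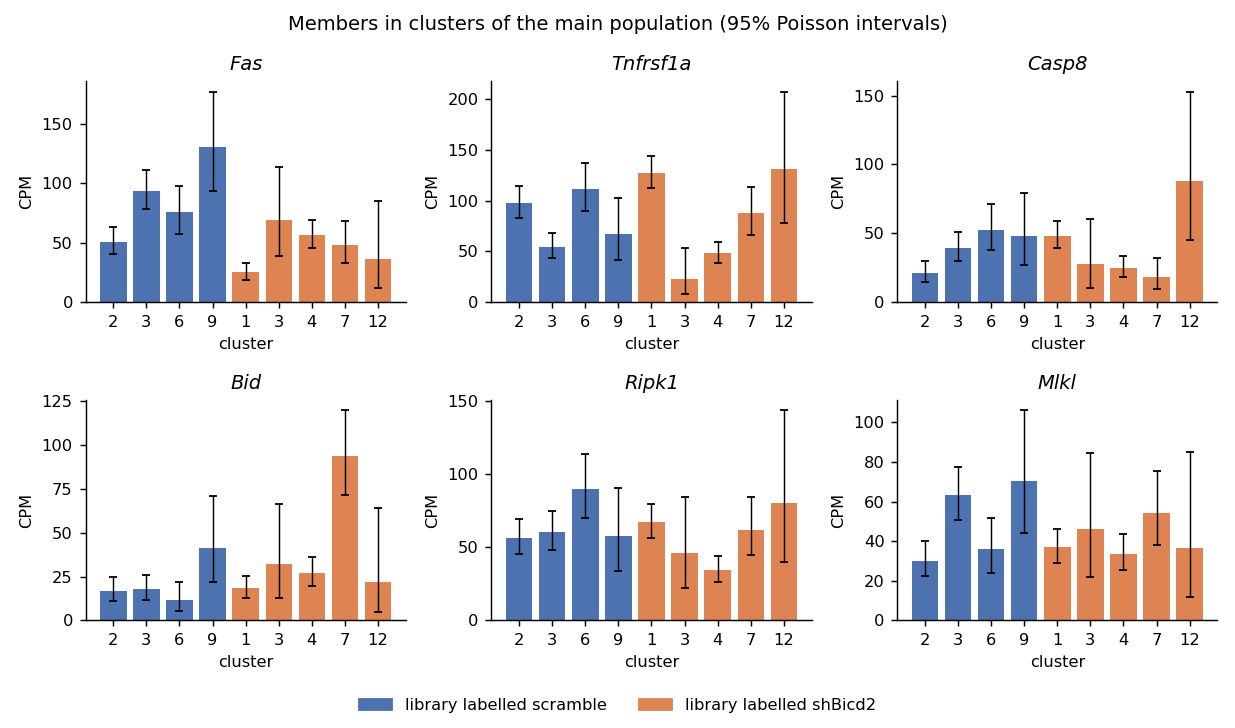
CPM of 6 members (vertical axes) in each main population cluster with at least 50 barcodes of the library (horizontal axes give cluster numbers); blue is the library labelled scramble, orange the library labelled shBicd2, and lines are 95% Poisson intervals. Bid stands out in cluster 7 at 93.6 CPM, Fas is lowest in cluster 1 at 25.1 CPM and highest in cluster 9 at 131 CPM.

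Because the clusters split by library, the member ratios were recomputed without each cluster and within the shared cluster. Without cluster 1, Cflar had a ratio of 0.683 and Fas of 0.708, so neither was past 1.5-fold, while Cflar ran from 0.553 to 0.683 over the 8 clusters left out in turn. In cluster 3 alone, Cflar stood at 615 CPM (575 to 658) and 446 CPM (362 to 544), a ratio of 0.724, and Fas at 93.6 and 68.9 CPM, for a ratio of 0.737. The killing members went both ways there on few shBicd2 UMIs: ratios were 0.707 for Casp8 (6 UMIs), 0.763 for Ripk1 and 0.728 for Mlkl (10 each), 1.82 for Bid (7) and 4.32 for Tnfrsf10b (2). Tnfrsf1a stood at 54.6 and 23.0 CPM from 77 and 5 UMIs. The balance in that cluster was 185 (165 to 207) and 176 (125 to 250) Cflar UMIs per 100 killing UMIs, a ratio of 0.955. These intervals overlapped, and the second rests on 108 barcodes.

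Ripk3, the kinase that activates Mlkl, had few UMIs in the main population and in hepatocyte-like barcodes. In the main population it had 1 UMI among 4187742 and 4 among 4785989, and 0 and 1 UMIs in hepatocyte-like barcodes. The 6 clusters outside these held 2 and 7 Ripk3 UMIs, or 5.77 CPM (0.699 to 20.8) and 19.7 CPM (7.93 to 40.7), although they had 346612 and 354745 UMIs in all. That was 24.2 times (1.26 to 1426) and 23.6 times (6.00 to 110) the main population level. Monocyte/macrophage-like barcodes alone held 2 and 3 of these UMIs, or 25.7 and 40.3 CPM. Hepatocyte markers in the same clusters stood at 0.711 and 0.840 of their main population level. Mlkl, in contrast, had 195 and 187 UMIs in the main population.

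Levels in monocyte/macrophage-like barcodes were next set against the main population. Cflar stood at 1157 CPM (931 to 1422) and 470.0 CPM (327 to 654) there, 2.01 (1.61 to 2.48) and 1.35 (0.936 to 1.88) times the main population level, and the second interval includes 1. Ripk1 stood at 154 and 175 CPM, 2.43 (1.24 to 4.31) and 3.23 (1.69 to 5.61) times that level, while hepatocyte markers were at 0.588 and 0.670 of theirs. Of 3 members with at least 20 UMIs in this class, Cflar was past 1.5-fold lower, at 0.406 (0.267 to 0.606), against 26.5% of its genes, and none was past 1.5-fold higher, against 23.2%. Median mitochondrial shares were 0.315% and 1.63%, and their part in that ratio was not tested.

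In hepatocyte-like barcodes 5 members had at least 20 UMIs. Cflar, Ripk1 and Mlkl were past 1.5-fold lower there, against 34.5% of 4182 genes, and none was past 1.5-fold higher, against 21.5%. Cflar stood at 417 CPM (352 to 491) and 172 CPM (126 to 228), a ratio of 0.411 (0.290 to 0.575). The class was not alike in the libraries, with hepatocyte markers at 39434 and 74346 CPM and median depths of 1155 and 899 UMIs. The part of these differences in that ratio was not tested. Ripk1 (24 and 11 UMIs) and Mlkl (16 and 5 UMIs) had intervals that included 1. Bid had 2 and 3 UMIs. Fadd had none, for which the exact intervals end at 10.5 and 13.5 CPM, and a limit of 3 counts would stand at 8.57 and 10.95 CPM. Neutrophil-like barcodes, 8 and 47, were too few to compare. In the 47 shBicd2 barcodes Tnfrsf1a stood at 291 CPM (182 to 440).

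EGFP, a reporter added to the reference whose vector the labels do not name, was in 7.13% and 30.7% of main population barcodes. Within the library labelled shBicd2, the 737 barcodes with EGFP had Tnfrsf1a at 64.2 CPM (53.1 to 76.8) against 104 CPM (92.5 to 116) in the 1666 without. Ripk1 stood at 37.5 CPM (29.2 to 47.5) against 64.5 CPM (55.6 to 74.3), and Cflar at 381 CPM (353 to 410) against 329 CPM (308 to 350). Barcodes with EGFP were deeper, with a median of 2143 against 1513.5 UMIs. After thinning, Tnfrsf1a was at 65.1 against 98.2 CPM and Ripk1 at 36.3 against 66.6 CPM, while Cflar was at 337 against 335 CPM. EGFP leads cluster 4, so these values repeat in part those of that cluster. In the library labelled scramble, with 155 barcodes carrying EGFP, Cflar was at 601 CPM (529 to 679) with EGFP and 574 CPM (550 to 599) without. The ratio with over without EGFP there was 0.819 (0.540 to 1.20) for Tnfrsf1a, whose thinned levels were 106 against 86.2 CPM, and 0.850 (0.529 to 1.31) for Ripk1. For Mlkl it was 1.63 (1.07 to 2.42), and for Bid 0.246 (0.0292 to 0.921) from 2 and 73 UMIs. Thinned Mlkl in that library was at 56.7 CPM (24.5 to 112) with EGFP and 42.1 CPM (32.6 to 53.6) without. Thinned Bid was at 7.09 CPM (0.180 to 39.5), from 1 UMI, against 24.3 CPM (17.2 to 33.3). The intervals of each pair overlapped.

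The wider pathway was described with 105 further genes in 8 lists. In the main population 80 had at least 20 UMIs. Of these, 17 were past 1.5-fold higher under the shBicd2 label and 3 past 1.5-fold lower, against 25.2% and 10.9% of all genes. Their median log2 ratio was 0.17, beside 0.15 over all genes.

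Ligands were scarce. Over all kept barcodes, Tnf had 50 and 74 UMIs, Fasl, the ligand of Fas, 1 and 0, and Ifng, the gene of interferon gamma, 6 and 11. Tnfsf10, the ligand TRAIL, had 65 and 22 UMIs, or 13.3 and 4.06 CPM. In the main population Tnfsf10 had a ratio of 0.263 (0.137 to 0.475) from 50 and 15 UMIs. Tnf there stood at 4.30 and 13.6 CPM, for a ratio of 3.16 (1.85 to 5.66). Over all kept barcodes the Tnf ratio was 1.34 (0.920 to 1.95), an interval that includes 1. Ltb in the main population had a ratio of 0.414 (0.165 to 0.961) from 19 and 9 UMIs. Of 5 measured further receptors, 3 were past 1.5-fold higher, against 25.2% of all genes. Tnfrsf12a, the receptor for TWEAK, stood at 62.8 and 135 CPM, for a ratio of 2.15 (1.86 to 2.49), and Tnfrsf1b, the TNF receptor without a death domain, at 40.1 and 69.6 CPM, for a ratio of 1.73 (1.44 to 2.10).

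In the list of the TNF receptor complex and its ubiquitin editing, 4 of 24 genes, all measured, were past 1.5-fold higher and none lower, against 25.2% and 10.9% of all genes, and the median log2 ratio was 0.11. Its ubiquitin ligases did not share a direction. Birc2 stood at 944 and 654 CPM, for a ratio of 0.692 (0.660 to 0.725), and Birc3 at 181 and 141 CPM, for a ratio of 0.775 (0.697 to 0.861). Xiap, a caspase inhibitor, had 0.990 (0.931 to 1.05). Of the linear ubiquitin ligase, Sharpin had 1.27 (1.05 to 1.54). Its partners Rnf31, at 0.920 (0.766 to 1.10), and Rbck1, at 1.09 (0.945 to 1.26), had intervals that included 1. Tnfaip3, the ubiquitin editor A20, stood at 404 and 478 CPM, for a ratio of 1.18 (1.11 to 1.26). NF-kB subunits and inhibitors had 4 of 8 past 1.5-fold higher, against 25.2% of all genes, with Rela at 315 and 511 CPM, for a ratio of 1.62 (1.52 to 1.74), and Nfkb1 at 158 and 260.1 CPM, for a ratio of 1.65. Nfkbia, the inhibitor that NF-kB itself induces, stood at 649 and 961 CPM, for a ratio of 1.48 (1.41 to 1.55). Cflar and Birc3 are textbook NF-kB targets like Nfkbia and Tnfaip3. The first pair had ratios below 1 and the second pair above 1. Birc3 was named after its value was seen, so the pairs are picked examples. Of the other subunits, Relb had 1.33 (1.13 to 1.55), Nfkb2 1.05 (0.889 to 1.25) and Rel 0.951 (0.799 to 1.13). The part of NF-kB in any of these ratios was not tested.

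**Figure D5:**
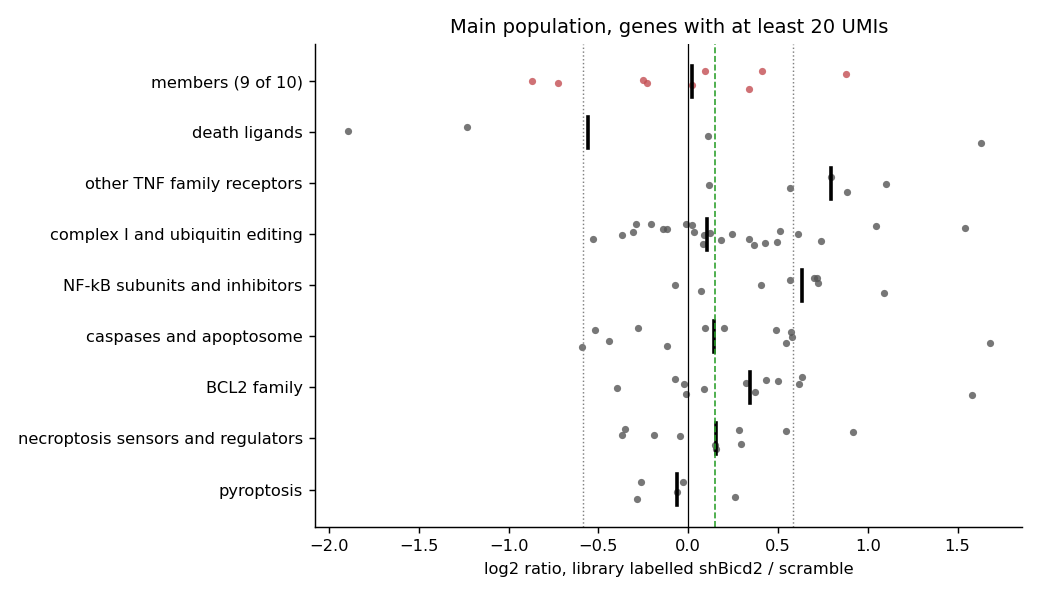
Log2 ratio of each gene with at least 20 UMIs in the main population (horizontal axis, library labelled shBicd2 over library labelled scramble), by list; each dot is a gene, black bars are list medians, the dashed line is the median of all genes (0.15) and dotted lines mark 1.5-fold. The 9 members spread to both sides of 0. List medians run from -0.56 (death ligands) to 0.79 (other TNF family receptors), with the NF-kB list at 0.63.

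Downstream of the members lies the mitochondrial arm. Bbc3, the BH3-only protein PUMA, stood at 25.8 and 77.3 CPM, for a ratio of 3.00 (2.41 to 3.75). Bax, which forms the pore that cut BID sets off, stood at 97.7 and 150 CPM, for a ratio of 1.53 (1.36 to 1.74). Bcl2l11, another BH3-only gene, had 1.55 (1.26 to 1.92). Of 12 measured BCL2 family genes these 3 were past 1.5-fold higher, a share near the 25.2% of all genes, and none lower, against 10.9%. The protective Bcl2l1 had 0.992 (0.917 to 1.07) and Mcl1 1.42 (1.30 to 1.55). Of 12 caspase and apoptosome genes, Casp9 alone was past 1.5-fold higher, against 25.2% of all genes, and Dffb alone lower, against 10.9%. Casp9 had 3.38 (1.43 to 9.18) from 7 and 27 UMIs, and Dffb 0.663 (0.481 to 0.910). Apaf1, which builds the apoptosome, had 0.921 (0.820 to 1.04).

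Among necroptosis sensors, Zbp1, which can recruit RIPK3 through the same motif as RIPK1, stood at 235 and 228 CPM, for a ratio of 0.967 (0.887 to 1.06). Adar, which edits double-stranded RNA and restrains Zbp1, had 0.784 (0.687 to 0.893). Of 10 measured genes 1, the membrane repair gene Chmp2a, was past 1.5-fold higher, against 25.2% of all genes. Of 5 measured pyroptosis genes none was past 1.5-fold higher or lower, against 25.2% and 10.9% of all genes. Gsdmd, the pore protein of pyroptosis, stood at 153 and 126 CPM, for a ratio of 0.822 (0.734 to 0.920).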

How the data were processed

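Each of 2 groups has 1 library, made with version 3.1 of the 10x 3′ kit according to the labels' protocols. The authors deposited raw UMI counts for every gene and barcode. Per the file headers these come from Cell Ranger 6.1.2; the submitters' processing notes list Cell Ranger 6.0.1, Seurat 4.0.3 and mm10. Dissociation, and the use of intron reads or strand in counting, are not given in the sources used here. Members and gene lists were chosen with earlier results of these data known.

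The barcode filter asked for 200 genes or more and a mitochondrial share up to 25%, and Scrublet's highest scores (scanpy 1.11.5) were removed as doublets at 0.8% per 1000 barcodes, 62 and 73 in all. Barcodes were clustered with leidenalg 0.10.2 (2000 variable genes, 30 components, 15 neighbours, resolution 1.0) without the members and list genes. Clusters were named where at least 3 and at least 40% of a fixed marker set were raised by 1 log2 unit. The reference was all other kept barcodes pooled. The 40% was set with earlier results known, and it leaves cluster 4, which raised 3 of 11 cholangiocyte markers, in the main population. Cluster 8, raised in B cell, erythroid and proliferation markers, was kept apart as mixed after its values were seen.

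Counts were summed per library and population and divided by the total to give CPM. Intervals are exact (Poisson for levels, Clopper-Pearson for shares, conditional binomial for ratios) and cover counting error only. The calculation was tested on simulated counts. No p-value was computed, since barcodes are not replicates. A difference is counted past 1.5-fold by its ratio, for genes with at least 20 UMIs in both libraries together, and log2 ratios had 0.5 count added. Named genes are all members and up to 6 of each list with the most UMIs. Outside that rule, Casp9, Bcl2l11, Chmp2a, Fasl, Birc3, Sharpin, Rnf31 and Rbck1 were named after their values were seen. Coordinates come from GENCODE M21 of GRCm38 by gene ID, promoter windows from RefSeq on GRCm38.p6.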

Additional observations from a re-analysis of the deposited data

How the results depend on the processing

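The ratios of Cflar and Fas were below 1 and that of Bid above 1 under all 7 other settings over all kept barcodes (at most 5% mitochondrial UMIs, only barcodes with a mitochondrial UMI, no doublet removal, every deposited barcode, no EGFP barcodes, scaling by the median gene ratio, a total without genes over 1% of UMIs) and all 9 in the main population, which replace every deposited barcode by thinning, equal weights and a coarser clustering. In the main population Cflar lay between 0.573 and 0.608, Fas between 0.484 and 0.552 and Bid between 1.46 (thinned) and 2.01. Tnfrsf1a lay between 0.986 and 1.23 and Casp8 between 0.970 and 1.16, so their directions depend on the setting. Without barcodes carrying EGFP, 1 member and not 2 was past 1.5-fold higher over all kept barcodes, and the Cflar balance ratio was 0.550 there and 0.572 in the main population. With equal weight per barcode, 2 members were past 1.5-fold higher in the main population. The count of pathway genes past 1.5-fold lower was 5 under scaling by the median gene ratio, 5 with the total taken without genes over 1% of UMIs, 9 with a minimum of 1 UMI and 1 with a minimum of 100 UMIs, where fewer genes are tested. At 2-fold, 7 pathway genes were higher. The share of all genes was not taken at these other settings, so these counts cannot be set against genes at large. Leaving out a cluster, an alternative chosen after seeing the data, gave 0 members past 1.5-fold higher without cluster 7, 3 without cluster 1 or without cluster 2, and 0 past 1.5-fold lower without cluster 1; the balance ratio ran from 0.540 without cluster 4 to 0.793 without cluster 1 and was 0.955 in cluster 3 alone. The cause of these shifts was not tested. No paired analysis was possible because each group holds 1 library, and no replicate can be left out. Fadd, Tnfrsf10b and Ripk3 are limited by depth, with 28, 54 and 5 UMIs in the main population over both libraries.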

Other observations

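Over the clusters with at least 50 barcodes (7 of the library labelled scramble and 9 of the other), the genes whose levels ran most like Cflar among 6161 genes were Bach1, Grb2 and Celf1, with mean Pearson correlations of 0.885, 0.872 and 0.854. For Tnfrsf1a they were Csk, Nrbp1 and Smyd5, at 0.934, 0.931 and 0.907, and for Ripk1 Dennd1a, Lman2l and B4galt3, at 0.930, 0.929 and 0.928. These are descriptions over few clusters of shared libraries and differing depth, picked as the highest of many. Among members, the correlation of Fas with Mlkl was 0.774 over the scramble clusters and 0.105 over the shBicd2 clusters. Other pairs shifted too: Cflar with Ripk1 had 0.776 and 0.145, and Cflar with Mlkl went the other way, at 0.137 and 0.755. The pair of Fas and Mlkl is thus not set apart from other pairs.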
